A study of Mus musculus with 6 samples.

Results

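In all, 10 germline genes were examined in a list of methylated regions from mouse chondrocytes: Sycp1, Sycp2, Sycp3, Hormad1, Sohlh2, Brdt, Dazl, Stk31, Slc25a31 and Cyct. They were chosen by name as genes of meiosis and spermatogenesis, with earlier results of the same list known, and all 10 were found among the 15771 protein-coding genes on the sequence the list covers. Of the 84111 peaks, 14 had their midpoint within 2 kb of either end of a member (gene-end peaks), and 8 lay elsewhere in a member's body. The assay, MBD-seq, sequences DNA fragments pulled down by MBD2, a protein that binds methylated CpG, and was applied to 6 cultures of primary chondrocytes, the cells of cartilage, taken from knee articular cartilage at postnatal days 3 to 5. The 3 control cultures were labelled Dnmt1 flox, with no Cre named. The 3 conditional knockout (cKO) cultures were labelled Prx1-Cre;Dnmt1 flox/flox, so both groups carried a floxed allele of Dnmt1, the enzyme that copies CpG methylation after replication. Prx1-Cre is active in limb mesenchyme, and how completely it removed Dnmt1 from the cultured cells is not given by the labels. The list was called on 3 merged datasets, and neither its header nor the labels say which group these were or what served as the background set. It holds no value for any single culture, so no difference between control and cKO could be tested, no spread between animals can be given, and the depth of each culture is unknown. A peak list shows no expression, so the cell type could not be checked against its markers.

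Germline genes are kept silent in somatic cells, and for many of them this involves dense CpG methylation of the promoter, which most CpG-rich promoters lack. Methylation of these promoters is laid down around implantation and has to be copied at each division, a task of Dnmt1. The repressors E2F6 and the MGA and MAX pair belong to a Polycomb-type complex that binds many germline promoters, through a TCCCGC word and through the E-box CACGTG respectively.

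The promoters of 4 genes are shown because they span the range of the results: Dazl with the highest background, Slc25a31 with the most reads at its start, Sycp3 with the highest fold among the members whose background exceeded the lowest of the list, and Cyct, whose start peak was the only one at the lowest background. Each runs 5′ to 3′ from 250 bases before to 50 after the RefSeq start (GRCm38.p6), and capitals mark the CG dinucleotides, the sites where MBD2 binds when they are methylated. Dazl is at chr17:50293571-50293870 on the minus strand, Slc25a31 at chr3:40708621-40708920 on the plus strand, Sycp3 at chr10:88459337-88459636 on the plus strand and Cyct at chr2:76360404-76360703 on the minus strand.
Dazl: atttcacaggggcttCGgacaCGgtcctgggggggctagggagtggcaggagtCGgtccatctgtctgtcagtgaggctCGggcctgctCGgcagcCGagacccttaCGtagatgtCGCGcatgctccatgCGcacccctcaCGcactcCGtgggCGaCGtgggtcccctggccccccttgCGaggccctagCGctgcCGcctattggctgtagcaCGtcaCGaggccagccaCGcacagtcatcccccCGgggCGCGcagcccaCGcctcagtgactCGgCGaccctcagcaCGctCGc
Slc25a31: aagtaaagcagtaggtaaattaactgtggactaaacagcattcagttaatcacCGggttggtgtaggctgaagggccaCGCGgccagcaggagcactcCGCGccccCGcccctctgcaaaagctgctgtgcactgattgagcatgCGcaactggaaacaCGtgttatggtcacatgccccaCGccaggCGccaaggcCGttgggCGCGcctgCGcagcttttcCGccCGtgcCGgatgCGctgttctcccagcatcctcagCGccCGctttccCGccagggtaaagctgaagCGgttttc
Sycp3: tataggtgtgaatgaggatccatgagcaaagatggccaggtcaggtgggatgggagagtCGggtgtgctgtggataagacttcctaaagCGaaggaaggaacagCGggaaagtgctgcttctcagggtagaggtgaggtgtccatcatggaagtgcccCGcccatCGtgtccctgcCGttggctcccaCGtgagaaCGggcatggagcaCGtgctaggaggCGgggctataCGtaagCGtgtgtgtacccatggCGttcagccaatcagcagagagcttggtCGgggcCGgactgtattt
Cyct: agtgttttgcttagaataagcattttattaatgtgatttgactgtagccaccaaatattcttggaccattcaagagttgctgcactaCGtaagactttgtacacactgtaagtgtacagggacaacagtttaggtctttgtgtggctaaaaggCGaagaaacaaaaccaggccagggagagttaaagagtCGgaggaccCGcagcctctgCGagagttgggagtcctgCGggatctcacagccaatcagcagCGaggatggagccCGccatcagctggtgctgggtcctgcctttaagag
These promoters hold 28, 22, 15 and 8 CG dinucleotides, in the order printed.

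All 10 genes had a gene-end peak, and at each of them one lay at the end with the transcript start. Across all protein-coding genes on covered sequence, 37.4% had a gene-end peak, at either end, by the same 2 kb rule. Of the 14 gene-end peaks, 13 were at the start and 1 at the far end, in Sohlh2. The start itself lay inside a peak at 9 genes. Dazl was the exception, with its start in a gap of 155 bases between 2 peaks. For these start counts no matching share over all genes is given, so they show no preference of the members for starts. At Brdt, Hormad1, Sohlh2, Slc25a31 and Cyct the summit fell from 25 bases before the start to 1 base before it. At Sycp2, Stk31 and Sycp3 it was 216, 252 and 341 bases inside the gene.

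**Figure D1:**
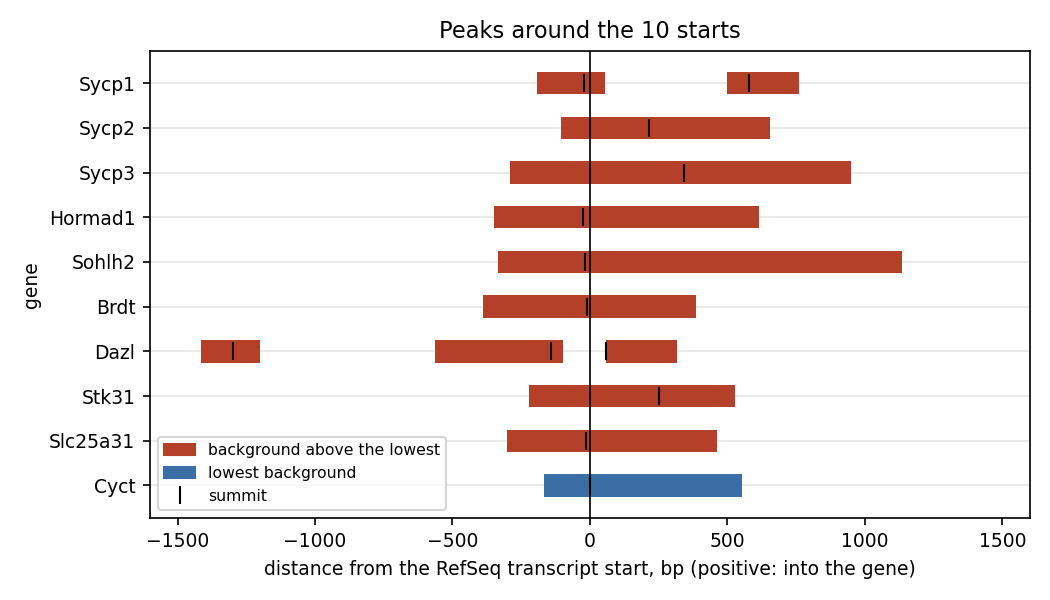
Peaks at the starts of the 10 genes, as bars by distance from the RefSeq transcript start in bp (positive into the gene), with the summit as a tick and the colour giving the kind of background. At 9 genes a bar crosses the start; at Dazl the start lies in the 155-base gap between 2 bars.

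For each peak, the number of reads at the summit (the pileup) and the background it was compared with were worked out from the fold and p-value that the authors' peak caller gave it. The background is in reads scaled to the merged set. No matched peak had a background under 6.37 reads, and this lowest value is a genome-wide average: at such a peak the local background is known only to be at or below it. A background above it was measured near the peak in the background set. Among the members, 12 of 14 gene-end peaks had a background above the lowest, at 9 of 10 genes, Cyct being the exception. Over all protein-coding genes, 5.36% had a gene-end peak of this kind, and 13.5% of the 7119 gene-end peaks were of it. The median fold of the 14 peaks was 4.85, against 14.5 over all gene-end peaks. Their median background was 63.7 reads against 6.37, and their median pileup 378 reads against 118. Of the 7119, however, 6155 were at the lowest background. Among peaks above it alone, the 12 of the members had a median fold of 4.14, against 16.5 for all 964 such gene-end peaks. The median background was then 94.8 reads against 13.6, and the median pileup 380.5 against 318. Dazl and Sycp1 enter these medians with more than 1 peak each. With 1 start peak a gene, that with most reads, the median fold of the 10 genes was 6.78 and the median background 63.7 reads.

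**Figure D2:**
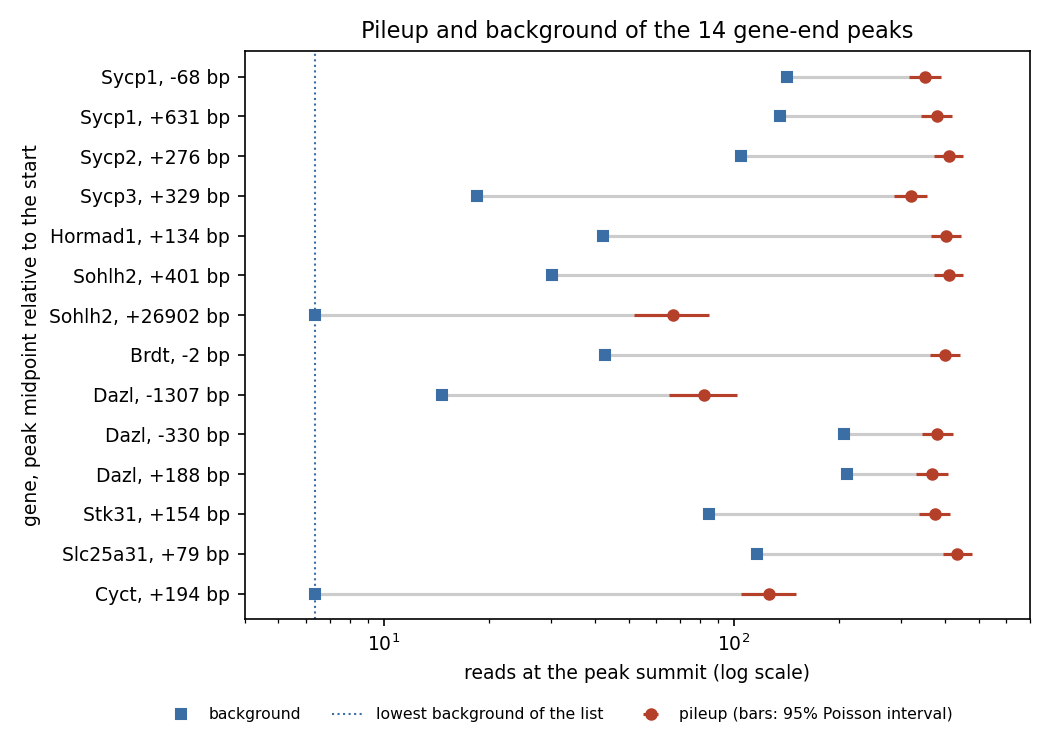
Pileup (circles, with exact 95% Poisson intervals) and background (squares) in reads on a log scale for each of the 14 gene-end peaks, named by gene and by the distance of the midpoint from the start. The background squares spread from 6.37 to 210 reads, whereas 11 of the 14 pileups lie between 320 and 435 reads.

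Sycp1, Sycp2 and Sycp3 encode parts of the synaptonemal complex, which joins homologous chromosomes in meiosis. Sycp1, the transverse filament, had a peak of 250 bp over its start (chr3:102936044-102936293) with 352 reads in the pileup over 142 in the background, a fold of 2.47. A second peak of 264 bp, after a gap of 442 bases into the gene (chr3:102935338-102935601), had 380 reads over 136, a fold of 2.79. The pair had nearly the same levels on either side of their gap. Sycp2, of the axial elements, had a single peak of 762 bp (chr2:178407002-178407763) with 411 reads over 105, a fold of 3.89. Sycp3, the other axial element protein, had a wider peak of 1244 bp (chr10:88459295-88460538) with 320 reads over 18.4, a fold of 16.5. Of the 3 Sycp genes, Sycp3 thus had the fewest reads at its start peak but by far the lowest background and the highest fold. Hormad1, a HORMA-domain protein that marks unsynapsed chromosome axes, had a peak of 965 bp (chr3:95559329-95560293) with 404 reads over 42.3, a fold of 9.35.

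Among the regulators, Sohlh2 is a basic helix-loop-helix transcription factor of early germ cells. Its start peak was the widest of all 14 at 1470 bp (chr3:55181711-55183180), with 411 reads over 30.2, a fold of 13.2. Brdt, the testis-specific bromodomain protein of the BET family, had 401 reads over 42.8 in a peak of 775 bp (chr5:107330805-107331579), a fold of 9.18. Stk31, a germ-cell protein with a tudor and a kinase domain, had 375 reads over 84.6 in 751 bp (chr6:49395318-49396068), a fold of 4.39. Dazl, an RNA-binding protein needed for germ cell development, had the highest background. Its peaks beside the start had 381 reads over 207 (chr17:50293717-50294184, fold 1.84) and 368 reads over 210 (chr17:50293303-50293561, fold 1.75). Another Dazl peak, with its midpoint at -1307 bp from the start (chr17:50294819-50295035), had 82 reads over 14.7, a fold of 5.30. The −log10 q of the pair beside the start was 25.3 and 20.7, close to the lowest of the list, 20.004, so Dazl was near the limit of what the list reports.

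The last 2 members are testis forms of mitochondrial proteins. Slc25a31 encodes the ADP/ATP carrier of male germ cells, and its peak of 764 bp (chr3:40708569-40709332) had 435 reads over 116, a fold of 3.72. Cyct encodes testis cytochrome c. Its peak of 724 bp (chr2:76359898-76360621) had 126 reads at the lowest background, 6.37, a fold of 17.2. Taking the start peak with most reads at each gene, Cyct was thus highest of the 10 in fold and had the fewest reads. These folds are not on one footing, since that of Cyct was taken against the genome-wide average.

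Taking the start peak with most reads at each of the other 9 genes, the pileups differed by a factor of 1.36 (320 to 435 reads) and the backgrounds by a factor of 11.2 (18.4 to 207 reads), while the folds ran from 1.84 to 16.5. The order of the 9 folds, from Dazl up to Sycp3, was the reverse of the order of the backgrounds, which the fold has in its denominator. A narrow range of pileups was not a feature of the members alone: gene-end peaks above the lowest background had a median pileup of 318 reads in general, with quartiles at 245 and 372. Both values together, a pileup of at least 320 and a background of at least 18.4 reads, were found in 275 gene-end peaks, 3.86% of the 7119. These limits are the lowest values of the 9 members, so all 9 meet them by construction and are counted in the 275. What sets the common upper range of pileups was not tested.

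**Figure D3:**
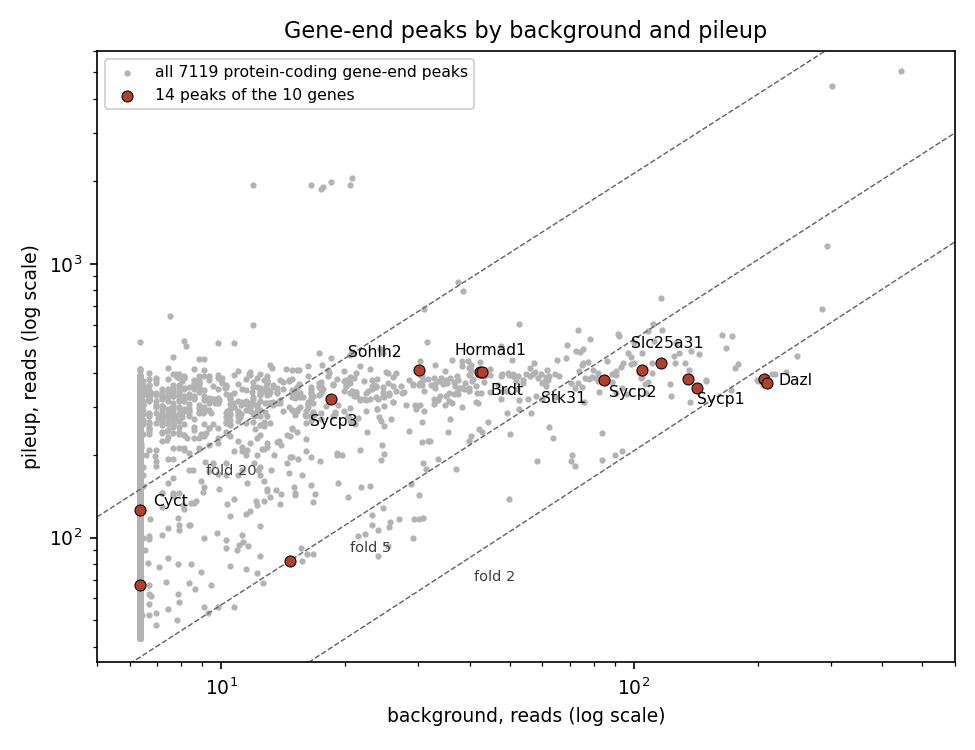
Background (x axis) and pileup (y axis) in reads, both on log scales, for all 7119 protein-coding gene-end peaks (grey) and the 14 of the 10 genes (red), with dashed lines at folds of 2, 5 and 20. The members lie in the upper band of pileups, spread along it from 18.4 to 210 reads of background, apart from Cyct, the far-end peak of Sohlh2 and the upstream peak of Dazl.

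The precision of these ratios could be given where the background was a whole number of reads. A step of 0.239 reads was fitted to the backgrounds. With the lowest value left out, 69.6% of those below 60 reads fell on a multiple of this step to within 1%, and the rest did not. A caller gives such steps when the background set is 4.18 times as large as the merged set and is scaled down. On this reading 10 of the 14 gene-end peaks had a whole number of unscaled background reads, within 2% of a step. Exact (Clopper-Pearson) 95% intervals below cover counting error only, not PCR copies or differences between animals. The pileup was 1.84 times the background at the upstream one of the pair beside the Dazl start (1.63 to 2.08; 865 unscaled background reads) and 2.48 times at the Sycp1 start (2.17 to 2.83; 594 reads). Slc25a31 followed at 3.74 (3.28 to 4.27; 486 reads), Sycp2 at 3.92 (3.41 to 4.49; 439 reads) and Stk31 at 4.43 (3.82 to 5.14; 354 reads), with intervals that overlap one another. Brdt at 9.37 (7.84 to 11.2; 179 reads) and Hormad1 at 9.55 (7.98 to 11.5; 177 reads) also had overlapping intervals, and Sycp3 was highest at 17.4 (13.5 to 22.6; 77 reads). Between these 5 levels, neighbouring intervals did not overlap. The other Sycp1 start peak, which had more reads, was at 2.80 (2.46 to 3.20; 567 reads). Sohlh2 had no whole number of background reads and Cyct only the genome-wide average, so neither has an interval. By fold, Sohlh2 at 13.2 lay between Hormad1 at 9.35 and Sycp3 at 16.5, so the 5 levels are not a grouping of all members.

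Away from the starts, body peaks were found in 4 of the 10 genes, namely Sycp1, Sohlh2, Brdt and Stk31, a share near the 54.3% of all protein-coding genes that had one. Gene length, which differs between genes, was not taken into account. Of the 8 body peaks, 3 were above the lowest background (37.5%), all in Sycp1, against 15.3% of all protein-coding body peaks. In Brdt 3 body peaks had 58 to 68 reads and widths of 180 to 246 bp, against 401 reads at the start. In Sohlh2 the body peak had 49 reads and the far-end peak 67, against 411 at the start. The Stk31 body peak had 125 reads against 375. The 3 body peaks of Sycp1 had more reads, 301, 367 and 468, over backgrounds of 20.6, 18.2 and 83.4, and the one of 468 reads (chr3:102832637-102833478), the highest pileup of all 22 member peaks, lay 103043 bp into the gene. No other annotated gene lay at or within 2 kb of any of the 22 peaks, except the lncRNA Gm17202 at a Brdt body peak (chr5:107377939-107378160).

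The surroundings of the starts were also looked at. Within 50 kb of the start peaks with most reads lay 41 peaks that belonged to no member, of which 5 were above the lowest background. Of all 84111 peaks of the list, 21041 were above it (25.02%). Among protein-coding gene-end and body peaks the shares were lower, 13.5% and 15.3%. Around Sycp3 there were 13 such peaks and around Cyct 9, all at the lowest background, as were the few near Hormad1, Sohlh2, Stk31 and Slc25a31. Brdt had none. Near Dazl 3 of 4 were above it, the highest with a background of 103 reads. The highest nearby were 57.9 reads at Sycp1 and 61.4 reads at Sycp2, 1 peak each.

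The promoter sequences were then set beside all others. A 300-base promoter was at hand for 12547 of the protein-coding genes and for all 10 members. Promoters with 15 or more CG dinucleotides made up 50.5% of them, and 8 of the 10 members were in this class. Stk31 had 29 CG, Dazl 28, Hormad1 24, Brdt 23, Slc25a31 22, Sycp1 21, Sohlh2 17 and Sycp3 15, while Sycp2 had 10 and Cyct 8. All 10 member promoters overlapped a peak, against 2.92% of all promoters. In the class of 15 or more CG, 1.14% of 6333 promoters overlapped a peak and 0.79% overlapped one above the lowest background, which all 8 members of this class did. These 8 were 16.0% of the 50 such promoters. In the class of 5 to 14 CG, 8.09% overlapped a peak, and in that of under 5 CG 1.76%. The CG count and the background did not run in step throughout: Sycp2, with 10 CG, had a background of 105 reads, above the 42.8 of Brdt with 23 CG. These are descriptions of genes picked with the results known, and no test was made of them.

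**Figure D4:**
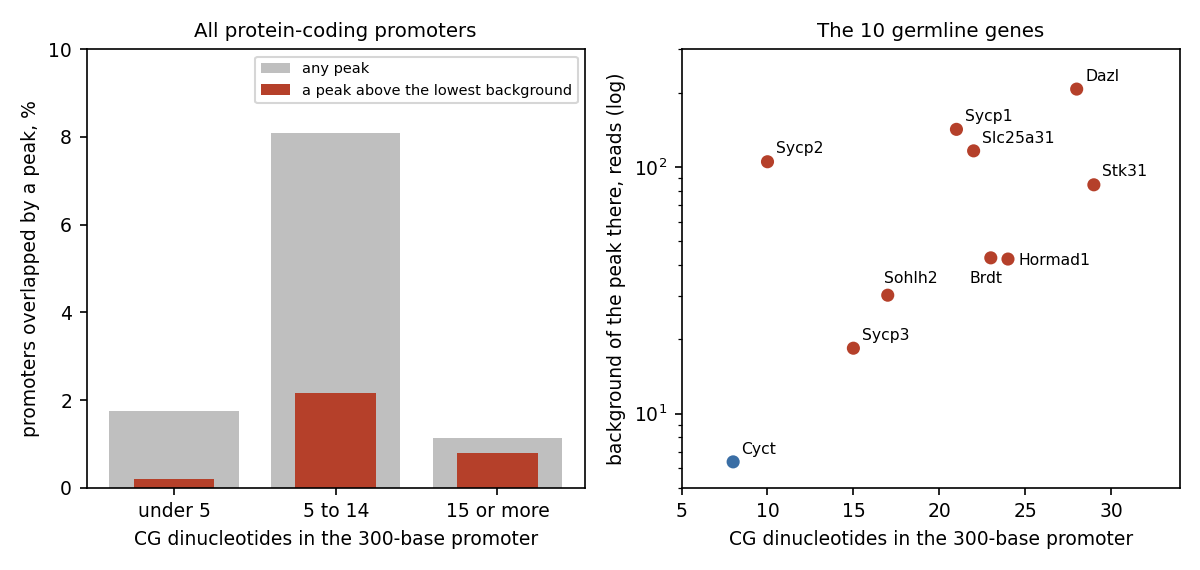
Left, the share in percent of all protein-coding promoters overlapped by any peak (grey) or by a peak above the lowest background (red), by the number of CG dinucleotides in 300 bases; right, that number and the background in reads (log scale) of the overlapping peak with most reads for the 10 genes. Peaks overlap 1.14% of promoters with 15 or more CG, the class that holds 8 of the 10 genes, and Cyct has both the fewest CG and the lowest background.

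The E-box CACGTG, which reads the same on both strands, was found in 6 of 10 member promoters: Sycp1, Sycp3, Hormad1, Brdt, Stk31 and Slc25a31. It occurs in 8.13% of all promoters and in 11.7% of those with 15 or more CG. Sycp3 and Hormad1 had 2 copies each. Counted from the start as position 0, first bases of the E-boxes ranged from -94 in Sycp1 to -20 in Hormad1. TCCCGC, searched on both strands, was found in 5 members, namely Sycp1, Sycp3, Hormad1, Slc25a31 and Cyct, and in 27.2% of all promoters and 45.5% of those with 15 or more CG. Both words were present in 4 members and neither in Sycp2, Sohlh2 and Dazl. In no member did matches of the 2 words overlap. Among promoters with 15 or more CG, 19 of the 738 with an E-box overlapped a peak (2.57%), 6 of them members. Of the 5595 without an E-box 53 did (0.947%), Sohlh2 and Dazl among them. For TCCCGC the order was the other way, with 27 of 2879 promoters that hold it (0.938%), 4 of them members, and 45 of 3454 that do not (1.30%). Since the members were chosen with their peaks known, these shares are in part set by that choice. A match is a word in the sequence and not evidence of binding.

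Other genes of meiosis and spermatogenesis gave a wider picture. From a list of 50 chosen by function, 41 lay on covered sequence. A gene-end peak was present at 28 of the 41 and one above the lowest background at 10, beside the 37.4% and 5.36% given above for all protein-coding genes. Their 39 gene-end peaks had a median fold of 14.4 and a median background of 6.37 reads, close to the 14.5 and 6.37 over all gene-end peaks and unlike the 10 members. Of the 10 genes, the highest backgrounds were at Syce3, of the synaptonemal complex central element (400 reads over 49.5), Stra8, the retinoic acid response gene of meiotic entry (342 over 39.9), Ankrd31, a factor of meiotic double-strand breaks (334 over 37.5), and Mei1 (339 over 27.7). At Msh4, Majin, Meioc, Tssk2, Boll and Odf1 the gene-end peak with most reads had a background from 7.41 to 16.5 reads. Of the protamine and transition protein genes, which package sperm DNA late in spermatogenesis and are named here after their values were seen, Prm2 and Tnp1 had a gene-end peak at the lowest background, and Prm1 and Tnp2 had none.

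Relatives of the members that are expressed in most cells were looked at by the same rule. They included Cycs, the somatic cytochrome c, and Brd2 and Brd3, which are BET proteins like Brdt; Slc25a4, a relative of Slc25a31, was not analysed here. The promoters of Cycs, Brd2 and Brd3 held 32, 32 and 46 CG and overlapped no peak, and none of these 3 genes had a gene-end peak. Brd3 had 11 peaks in its body. Cyct and Brdt thus carried a start peak that their relatives Cycs, Brd2 and Brd3 lacked. A promoter without a peak in this list can be unmethylated. If the background set is also MBD-seq, such a promoter can instead be methylated to a like extent in both sets. These cannot be told apart here.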

How the data were processed

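MBD-seq of 3 control and 3 cKO cultures was represented by 1 peak list for the whole series. Per the peak names, 3 datasets were merged with Samtools; fastp, Bowtie2, MACS2 and the builds mm10 and GRCm38 appear in the submitters' processing notes, with no versions. The deposited fold enrichment is the ratio of merged set to background, and the deposited −log10 p and −log10 q belong to each peak. The deposited score, which restates the −log10 q as an integer, and the deposited summit offset in bases complete a line. The last line of the list, on chromosome 6, was incomplete and not read; sequence beyond it was not analysed here.

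The pileup was solved as the whole number for which fold = (pileup + 1)/(background + 1) and the Poisson p both held. In 99.97% of peaks a whole pileup gave the −log10 p to within 1% of the step from one pileup to the next (25 did not match; all member peaks did). The procedure was tested on simulated data. Gene ends came from the RefSeq gene table and starts from the RefSeq promoter table, both GRCm38.p6. Of several starts the most upstream was used, and for Sycp2, Brdt and Stk31 this differs from the outer gene end. Genes in the first 3 Mb of a chromosome were left out. Members and lists were chosen with earlier results of these data known; the text names all members and, from the other germline list, the genes with a gene-end peak above the lowest background. An item of the list of relatives is not reported here. No test was run, as no value belongs to a sample. Alternatives were windows of 1 and 5 kb, placing by summit or overlap, merging within 500 bp and −log10 q of at least 50 or 100. Python 3.11.15, numpy 2.4.6, pandas 2.3.3 and scipy 1.17.1 were used.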

Additional observations from a re-analysis of the deposited data

How the results depend on the processing

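No paired analysis was possible because no value in the file belongs to a single culture, and no replicate could be left out. All 10 genes kept a gene-end peak, and 9 kept one above the lowest background, in windows of 1 kb and 5 kb, with peaks placed by summit or by any overlap, and after merging within 500 bp. With a −log10 q of at least 50 these counts were 9 and 8, without Dazl; with at least 100 they were 8 and 7, without Dazl and Sycp1. The gene-end peaks numbered 9 and 8 under these filters and the body peaks 4 under each, since weaker peaks are removed.

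The median fold of the gene-end peaks, 4.85, was 4.14 in a 1 kb window, 5.30 in a 5 kb window, 7.24 after merging, 9.18 at a −log10 q of at least 50 and 9.26 at 100. The median background, 63.7 reads, was 94.8, 42.8, 42.6, 42.8 and 42.6 reads in the same order. Over all protein-coding genes the median background was 6.37 reads in each of these settings, and the median fold ran from 14.5 to 24.3. Placing by summit or overlap changed neither median. The filter on q removes low folds by construction. Depth limits the list at its lower edge: a start with a pileup like that of Dazl and a markedly higher background would not be listed.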

Other observations

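The 50 promoters with 15 or more CG dinucleotides and a peak above the lowest background were also read by name, a choice made after their values were seen. Besides the 8 members they included other genes known from germ cells. Mael, a piRNA pathway gene, had 330 reads over 123. Fkbp6, a co-chaperone of the same pathway, had 392 over 90.4. Ddx4, the germ-cell RNA helicase, had 253 over 62.2. Rnf212, a factor of meiotic crossovers, had 342 over 20.8 and its relative Rnf212b 358 over 22.0. D1Pas1, a testis RNA helicase gene, had 377 over 198, the nearest to Dazl in background. Imprinted genes were there too: Zdbf2 had 370 over 60.7, Plagl1 242 over 83.9, Mcts2 226 over 32.0, Nnat 200 over 90.1, Gnas 190 over 70.5 and Igf2r 178 over 37.1. The 50 also held genes picked for neither group, among them Ctnnd1 (374 over 86.8), Jade1 (269 over 20.8), Csf2ra (293 over 9.32) and Hoxa5 (235 over 9.09). How many of the 50 are germline or imprinted genes was not counted. All these values come from the same list and are given without a test.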
